A study of Anas platyrhynchos with 8 samples.

Results

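Krüppel-like factors (KLFs) were followed in abdominal fat of ducks (Anas platyrhynchos) from an F2 population, taken on day 42 after birth. There were 4 libraries from ducks with a high abdominal fat ratio (HF) and 4 from ducks with a low ratio (LF). All birds were kept under the same conditions with free access to food and water. It is not stated whether single birds or pooled birds went into each library, and the p-values therefore measure the spread between these libraries, which may be technical. Of this family 10 genes were followed, KLF2, KLF3, KLF4, KLF5, KLF6, KLF7, KLF10, KLF11, KLF13 and KLF15, taken by symbol without regard to letter case. KLF8, KLF9 and KLF12 also held counts and are treated below as relatives. The 10 members account for 24 of the 48592 transcript rows and 10 of the 13213 symbols of the mRNA table. Of these rows 22 held a count in at least 1 library, and 18 had an accession that the RefSeq gene table of the assembly IASCAAS_PekinDuck_T2T lists under the same symbol. The other 6 rows had no match there, and the matched rows held 99.8% of the counts of the 10 genes.

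KLFs are transcription factors with 3 zinc fingers at the carboxyl end that bind GC-rich and CACCC sequences in promoters. In mouse adipocyte precursors several of them act in a cascade: KLF4 is induced early and activates Cebpb, KLF5 and KLF15 act on Pparg, and KLF6 represses the preadipocyte gene Dlk1. KLF2 and KLF3 oppose differentiation in mouse cells, by repressing Pparg and Cebpa, and KLF7 opposes it in chicken preadipocytes. KLFs also mark other cells of fat: KLF2 and KLF4 are induced by blood flow in mammalian endothelium, and KLF10 and KLF11 were first described as genes induced by TGF-beta.

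Total estimated counts ranged from 13244545 to 24416731 in HF libraries and from 12696240 to 30836178 in LF libraries. All 7 adipocyte markers were tested and 0 passed edgeR's test. Of them 5 had a negative log2 fold change (49.8% of all genes), 1 was called lower by DESeq2 (5.80% of all genes) and 2 had an unadjusted p under 0.05 by edgeR (15.0% of all genes). These 2 were the lipase gene PNPLA2, lower without overlap at -1.16 ± 0.33 (edgeR adjusted p = 0.144), and the lipid droplet gene CIDEC, at 0.86 ± 0.30 (adjusted p = 0.216). PLIN1, the lipid droplet coat protein, averaged 3548 ± 647 CPM (counts scaled to library size) in HF and 3124 ± 428 CPM in LF (SD, n = 4 each). Birds carry a female-specific chromosome, W, and 8 transcripts bear a W-linked or Wpkci description. Their counts came to 4226, 1818, 3410 and 2846 across HF-1 to HF-4, against 8, 7, 3 and 2861 across LF-1 to LF-4. All HF libraries and LF-4 thus held at least 1818 of these counts, and the other 3 LF libraries held at most 8 counts. The labels give no sex, and LF-4 is shown apart for KLF4 and for the other genes said below to lie on chromosome Z.

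KLF2 was the most abundant member and KLF5 the least. Levels between genes were compared as FPKM, which scales fragments by transcript length and library size, summed over the transcript models of a gene. KLF2 had 83.2, 150.5, 91.3 and 78.1 FPKM in HF-1 to HF-4, against 153.5, 121.2, 116.5 and 95.3 FPKM in LF-1 to LF-4. It was the highest of the 10 in each library, and KLF2 and KLF6 together made up 62.8% to 72.7% of the summed FPKM of these 10 genes in a library. KLF6, an early-response factor, averaged 38.7 ± 5.23 FPKM in HF and 37.8 ± 10.2 in LF. KLF3, the repressor that works with CtBP proteins, averaged 17.2 ± 4.58 FPKM in HF and 17.7 ± 4.76 in LF.

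**Figure D1:**
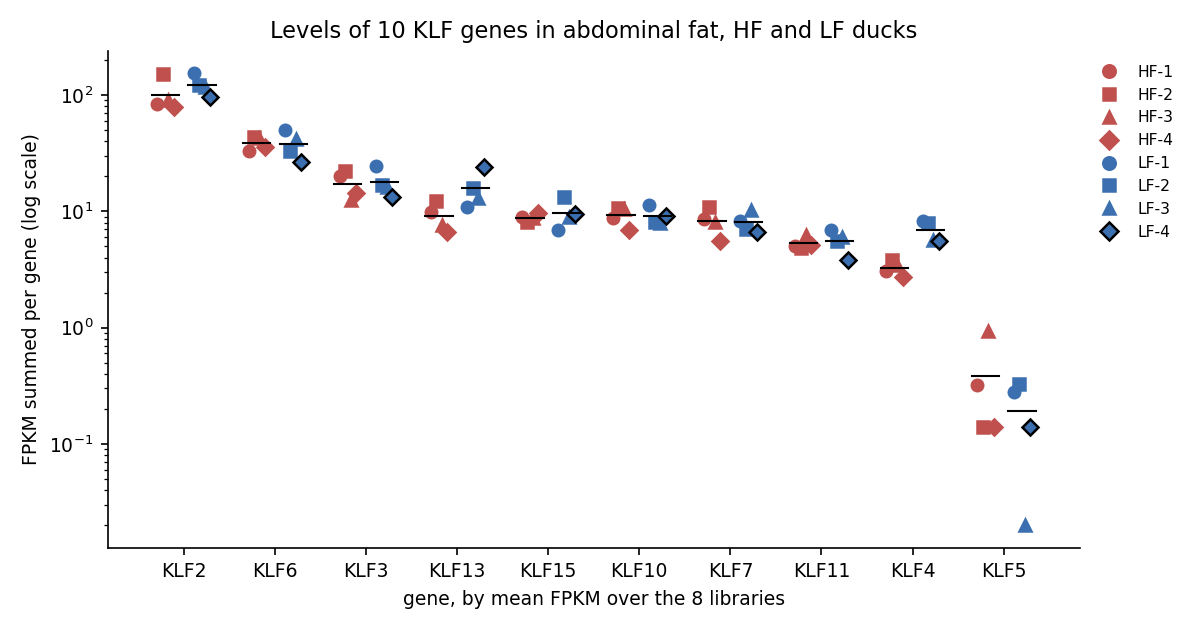
FPKM summed per gene (log axis) of the 10 KLF genes in each library, HF left of LF within a gene, black lines at the group means and LF-4 outlined in black. KLF2 lay between 78.1 and 153.5 FPKM and KLF5 between 0.02 and 0.93 FPKM. KLF4 is the gene whose HF points, 2.74 to 3.84 FPKM, all lie below its LF points, 5.58 to 8.29 FPKM.

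Below these lay 7 genes. KLF13 stood at a mean of 12.5 ± 5.53 FPKM over the 8 libraries (SD), KLF15 at 9.24 ± 1.86, KLF10 at 9.18 ± 1.54 and KLF7 at 8.17 ± 1.81. The differences between these neighbours did not exceed their spread. KLF3 was above KLF13 in 7 of 8 libraries, KLF13 above KLF15 in 6, KLF15 above KLF10 in 5 and KLF10 above KLF7 in 6. KLF11 followed at 5.45 ± 0.975 FPKM and was below KLF7 in all 8 libraries. KLF4 averaged 5.08 ± 2.17 FPKM, and its place differed by group: it was below KLF11 in 4 of 4 HF libraries and in 1 of 4 LF libraries. The 3 steps at which the means differed by more than the summed SDs were KLF2 to KLF6, KLF6 to KLF3 and KLF4 to KLF5. KLF5, a direct activator of Pparg in mouse preadipocytes, held between 1 and 34 counts per library, so its values carry a large counting error.

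Between the fat groups, KLF4 fell in HF and the other 9 members did not pass the test. Of the 10 genes tested, 1 was lower past an adjusted p of 0.05 (edgeR's quasi-likelihood test on counts summed per gene, adjusted over 10511 genes), where 0.352% of all genes were called lower in HF and 0.647% in either direction. None was called higher, where 0.295% of all genes were, and 2 members had an unadjusted p under 0.05 by edgeR, where 15.0% of all genes did. DESeq2 called 2 members lower, KLF4 and KLF13, and 5.80% of all genes with an adjusted p. With limma on log2(FPKM + 1), 1 member, KLF4, was called, and 0.897% of all genes. KLF5 had no adjusted p from DESeq2 and was below the FPKM cutoff for limma. A negative log2 fold change, lower in HF, was found in 8 of 10 members and in 49.8% of all genes. Of the 10 members, 6 had a log2 fold change under 0.2 in size, with SEs from 0.179 to 0.225. These were KLF3, KLF6, KLF7, KLF10, KLF11 and KLF15, and each changed sign in at least 1 leave-one-out fit. The median log2 fold change was -0.092 over the members and 0.0012 over all genes.

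**Figure D2:**
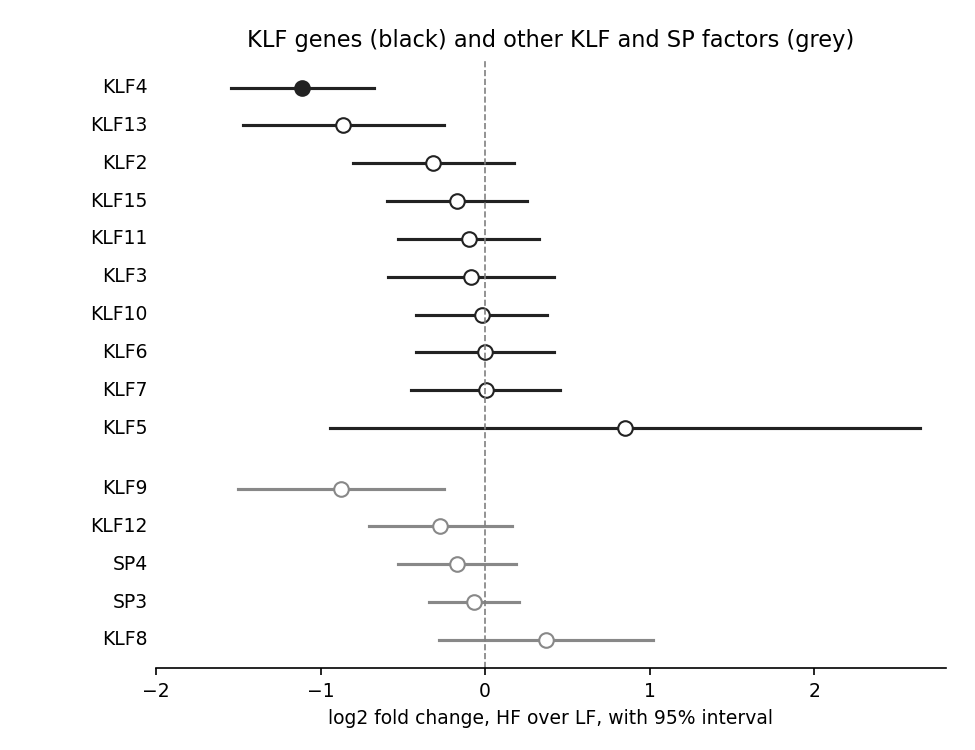
Log2 fold change of HF over LF with its 95% interval for the 10 KLF genes (black) and 5 other KLF and SP factors (grey), filled where the adjusted p is under 0.05. KLF4, at -1.11, is the 1 filled point, and the intervals of KLF13 and KLF9 also lie below 0.

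KLF4, the early factor of the adipocyte cascade and also a factor of vessel lining and smooth muscle, had 8.002, 9.57, 8.89 and 7.04 CPM in HF-1 to HF-4. It had 21.8, 21.1, 14.4 and 15.03 CPM in LF-1 to LF-4. Each HF library was below each LF library, which held for 1 of the 10 members. Of all genes tested, 4.64% were without overlap in that direction and 9.19% in either direction. The group means were 8.38 ± 1.10 CPM in HF and 18.1 ± 3.92 CPM in LF (SD, n = 4 each), a 2.16-fold lower level in HF with a log2 fold change of -1.11 ± 0.20 (SE). The edgeR adjusted p was 0.0419, close to the threshold. With 1 library left out at a time, KLF4 passed in 1 of 8 fits, the one without LF-4 (log2 fold change -1.19, adjusted p = 0.0364), and the adjusted p lay between 0.0364 and 0.147 over the 8 fits, with log2 fold changes from -1.20 to -1.01.

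The RefSeq table places KLF4 on chromosome Z, of which male birds carry a pair and females a single copy. The median log2 fold change of the 468 tested genes placed on Z was -0.23, against 0.0045 for 8879 genes placed elsewhere, and 12 of the Z genes, 2.56%, were as low as KLF4 or lower, KLF4 included. LF-4, the LF library with W transcripts, had 15.03 CPM of KLF4, against 9.57 CPM in the highest HF library and 14.4 CPM in LF-3, which held 3 W counts. With the presence of W transcripts as a covariate, the log2 fold change was -0.85 ± 0.28 and did not pass (edgeR adjusted p = 0.155). In that fit the group difference rests on LF-4 as the 1 LF library with W transcripts, with its spread taken from the rest. Beyond this library, fat group and W content cannot be told apart.

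**Figure D3:**
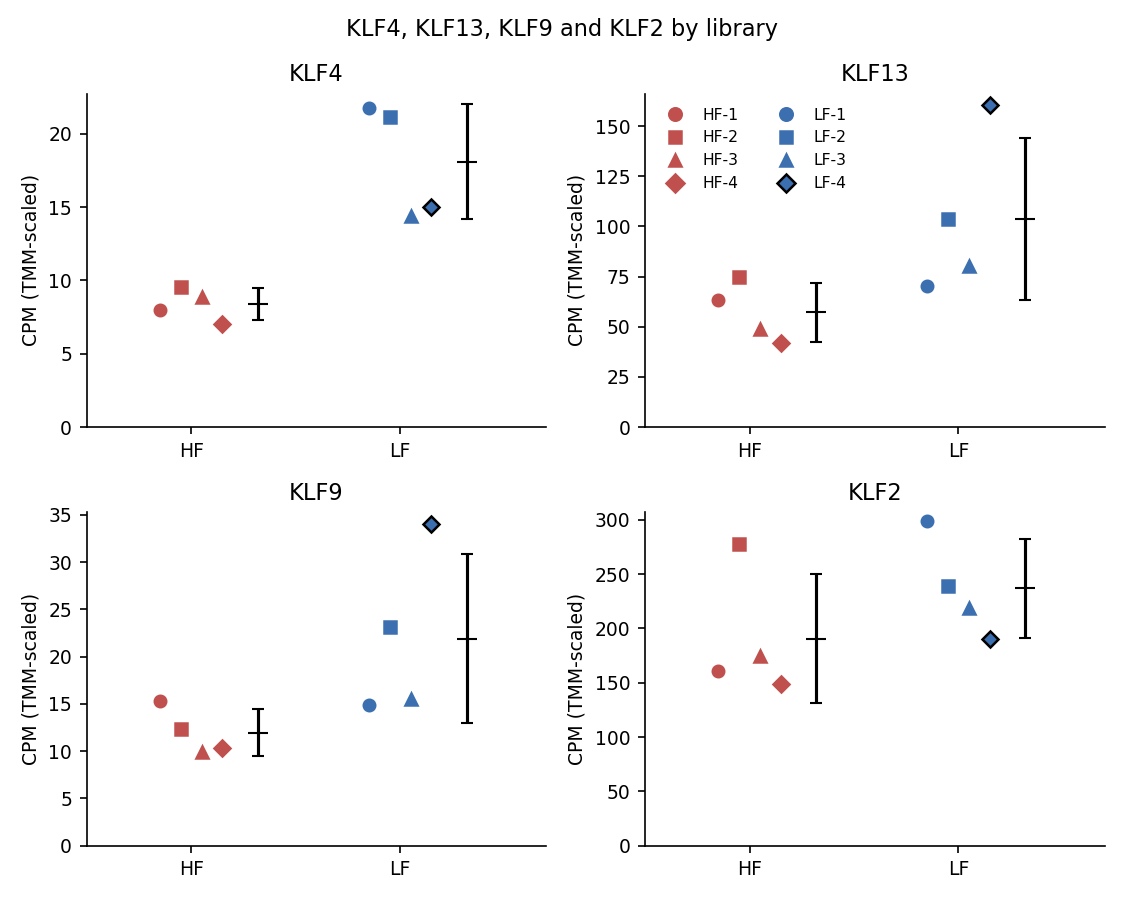
CPM of KLF4, KLF13, KLF9 and KLF2 in each library (linear axes from 0), HF left of LF, with mean ± SD beside the points and LF-4 outlined in black. KLF4 lay between 7.04 and 9.57 CPM in HF and 14.4 and 21.8 CPM in LF, whereas the groups overlapped for KLF13, KLF9 and KLF2, and LF-4 was the highest library for KLF13 and KLF9.

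KLF4 was counted in 2 transcript models, whose symbols differ in letter case alone. The main one, XM_027446785.1, had 6.59, 8.51, 8.79 and 6.98 CPM in HF-1 to HF-4, against 19.1, 20.4, 12.8 and 14.5 CPM in LF-1 to LF-4. It held 81.9% to 98.1% of the gene's counts in HF and 90.4% to 96.1% in LF, and its groups did not overlap. The log2 fold change of this model was -1.12 ± 0.24, with an adjusted p of 0.251 in the edgeR fit over 23879 transcripts, of which 0.0168% passed. The authors' deposited table gives it a log2 fold change of -1.08 and an unadjusted p of 0.0768. The other model, XM_027446783.1, had no accession match, and without it the gene passed again (edgeR log2 fold change -1.13, adjusted p = 0.0477).

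Of the markers of vessels, whose cells can carry KLF4, several were lower in value in HF, and none passed edgeR's test with all 8 libraries. An unadjusted p under 0.05 was found for 2 of 5 tested endothelial and 2 of 3 smooth muscle markers, where 15.0% of all genes had one, and DESeq2 called 1 of each lower, where it called 5.80% of all genes. The endothelial adhesion molecule PECAM1 had 790, 1100, 590 and 770 CPM in HF-1 to HF-4, against 1240, 1199, 1561 and 1490 CPM in LF-1 to LF-4. Its groups did not overlap and it did not pass (log2 fold change -0.76 ± 0.20, edgeR adjusted p = 0.123). The summed level of all 6 endothelial markers was 2784 to 5634 CPM in HF and 4802 to 6821 CPM in LF, and 4 of the 5 tested were negative, with a median log2 fold change of -0.52. Besides PECAM1, VWF was at -0.55 ± 0.25 and KDR at -0.52 ± 0.30. TEK, at -0.031 ± 0.23, and CDH5, at 0.073 ± 0.24, differed little between the groups. The 3 smooth muscle markers summed to 333 to 447 CPM in HF and 343 to 907 CPM in LF, and all 3 were negative. The actin gene ACTA2 was at -0.91 ± 0.29 (edgeR adjusted p = 0.183) and the myosin gene MYH11 at -0.81 ± 0.27 (adjusted p = 0.206). Each passed in 1 of the 8 leave-one-out fits, the one without LF-4. There ACTA2 was at -1.137 (edgeR adjusted p = 0.0350) and MYH11 at -1.035 (adjusted p = 0.0364). Over the 8 fits the adjusted p reached 0.377 for ACTA2 and 0.389 for MYH11. LF-4, the only LF library with W transcripts, lay within the HF range of both genes. For ACTA2 it had 172.3 CPM, against 147.0 to 220.8 CPM in HF and 378.1 to 511.3 CPM in LF-1 to LF-3. For MYH11 it had 152.3 CPM, against 127.8 to 209.6 CPM in HF and 338.5 to 366.4 CPM in LF-1 to LF-3. Without LF-4, fat group and W content cannot be told apart. Of the tested immune markers, all 6 of macrophages and all 5 of lymphocytes were positive, none past edgeR's threshold, 4 and 2 with an unadjusted p under 0.05 (15.0% of all genes) and 2 and 1 called by DESeq2 (5.80% of all genes). The 6 macrophage markers summed to 1018 to 1403 CPM in HF and 599 to 1122 CPM in LF, and the 6 lymphocyte markers to 74.9 to 134.1 CPM in HF and 47.0 to 69.1 CPM in LF. PTPRC had the most counts of the tested genes in the lymphocyte list, at 42.2 to 94.4 CPM in HF and 28.8 to 43.1 CPM in LF. PTPRC and IKZF1 were the 2 genes of this list with an unadjusted p under 0.05 by edgeR. Both were highest in HF-3. Their log2 fold changes were 0.81 and 0.87 with all 8 libraries, and 0.459 and 0.636 without HF-3. The T cell genes CD3E, at 0.76 ± 0.40, and CD3D, at 0.36 ± 0.25, overlapped between the groups. Of 6 tested stromal progenitor markers 5 were positive and 1 negative, and 0 passed by edgeR. DESeq2 called 1 higher and 1 lower (5.80% of all genes in either direction). An unadjusted p under 0.05 by edgeR was found for 2 (15.0% of all genes), CD34 at 1.11 ± 0.31 and FBLN1 at -0.63 ± 0.16. Whether the vessel, immune and stromal markers have a part in the KLF4 difference was not tested. In bulk tissue fewer cells of a type and less RNA per cell cannot be told apart.

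KLF13, a basic transcription element-binding factor that activates PPARG in pig preadipocytes, had 63.2, 74.7, 48.8 and 42.0 CPM in HF-1 to HF-4. It had 70.45, 103.7, 80.4 and 160.3 CPM in LF-1 to LF-4. The groups overlapped through 1 pair, since HF-2 was above LF-1, and LF-4 was the highest of all. The means were 57.2 ± 14.7 CPM in HF and 103.7 ± 40.2 CPM in LF (SD). The log2 fold change of -0.86 ± 0.27 missed the threshold (edgeR adjusted p = 0.183). Without LF-4 it was -0.57 (edgeR adjusted p = 0.313). With the W term in the edgeR fit it was -1.49 ± 0.29, a group difference that rests on LF-4, the only LF library with W transcripts. DESeq2 called it, at an adjusted p of 0.0496, and the authors' deposited table gives -0.81 and an unadjusted p of 0.0362 for its single model.

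**Figure D4:**
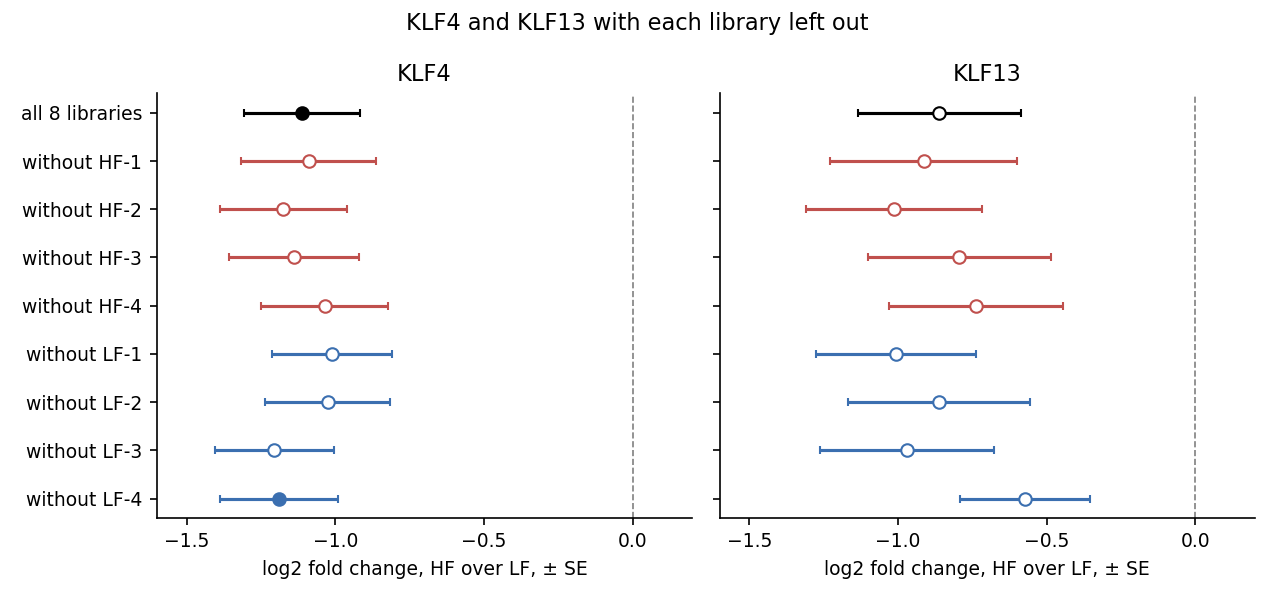
Log2 fold change of HF over LF ± SE for KLF4 and KLF13 with all 8 libraries and with each library left out, filled where the adjusted p is under 0.05. KLF4 stayed between -1.20 and -1.01, while KLF13 ranged from -1.01 without HF-2 to -0.57 without LF-4.

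KLF15, which raises insulin-responsive glucose transport and amino acid breakdown in mouse tissues, showed no difference that passed. It had 90.3, 78.6, 88.4 and 97.4 CPM in HF-1 to HF-4, against 71.1, 138.7, 88.9 and 100.7 CPM in LF-1 to LF-4. The LF libraries spanned the HF range on both sides, with LF-1 lowest and LF-2 highest. The log2 fold change was -0.17 ± 0.19, with a 95% interval from -0.60 to 0.25 (edgeR adjusted p = 0.723). Its sign turned without LF-2, at 0.028.

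KLF5 and KLF6, both regulators of early adipocyte differentiation in mice, did not pass the test. KLF6 had 136, 172, 176 and 147 CPM in HF-1 to HF-4, against 209, 139, 169 and 114 CPM in LF-1 to LF-4. The LF libraries were again the wider group, with SDs of 19.4 CPM in HF and 40.9 CPM in LF, and the log2 fold change was -0.0004 ± 0.19 (95% interval -0.42 to 0.42, edgeR adjusted p = 0.999). KLF5 had 0.54, 0.22, 1.53 and 0.23 CPM in HF-1 to HF-4, against 0.48, 0.64, 0.046 and 0.24 CPM in LF-1 to LF-4. Its log2 fold change of 0.85 ± 0.80 rested on HF-3, which held 34 of the 55 HF counts, and was -0.057 without that library. Its 95% interval ran from -0.94 to 2.64.

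The 3 members that oppose adipocyte differentiation elsewhere, KLF2, KLF3 and KLF7, did not pass either. KLF2 had 160.5, 278, 175 and 149 CPM in HF-1 to HF-4, against 299, 239, 219 and 190.5 CPM in LF-1 to LF-4. Of the HF libraries 3 were below all LF libraries, and HF-2 was above 3 of them. The log2 fold change was -0.31 ± 0.22 (95% interval -0.80 to 0.17, edgeR adjusted p = 0.540), and lay between -0.55 without HF-2 (adjusted p = 0.156) and -0.18 without LF-1 (adjusted p = 0.751). With the W covariate it was -0.0002 ± 0.34. In that fit the group difference rests on LF-4, the only LF library with W transcripts. LF-4 was at 190.5 CPM, and the HF mean was 190.5 CPM. HF-2 also had the highest PECAM1 level of the HF libraries, at 1100 CPM. The LF libraries differed in order: KLF2 was highest in LF-1 and lowest in LF-4. PECAM1 was highest in LF-3, at 1561 CPM, and lowest in LF-2, at 1199 CPM. A further row of 267 counts that is described as KLF2 of another bird has no symbol and was not included.

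KLF3 had 102.5, 108.5, 63.1 and 72.6 CPM in HF-1 to HF-4, against 127, 88.0, 81.2 and 71.3 CPM in LF-1 to LF-4. KLF7 had 78.9, 96.5, 72.9 and 50.8 CPM in HF-1 to HF-4, against 77.1, 66.3, 92.7 and 62.3 CPM in LF-1 to LF-4. LF-1 alone lay above the HF range of KLF3, and all LF libraries lay within the HF range of KLF7. The log2 fold changes were -0.083 ± 0.23 for KLF3 (95% interval -0.59 to 0.42, edgeR adjusted p = 0.901) and 0.0033 ± 0.20 for KLF7 (95% interval -0.45 to 0.46, adjusted p = 0.995). KLF3 turned positive without HF-3 or LF-1, at most 0.11, and KLF7 turned negative without HF-1, HF-2, LF-2 or LF-4, at most to -0.14.

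KLF10 and KLF11, the TGF-beta-inducible pair, did not pass the test. KLF10 had 24.5, 28.7, 29.3 and 19.4 CPM in HF-1 to HF-4, against 32.1, 23.3, 21.8 and 26.3 CPM in LF-1 to LF-4. KLF11 had 14.7, 13.5, 18.0 and 14.7 CPM in HF-1 to HF-4, against 20.4, 16.5, 17.2 and 11.5 CPM in LF-1 to LF-4. The LF libraries of KLF11 reached beyond the HF range at both ends. The log2 fold changes were -0.020 ± 0.18 for KLF10 (95% interval -0.42 to 0.38, edgeR adjusted p = 0.9696) and -0.10 ± 0.19 for KLF11 (95% interval -0.53 to 0.33, adjusted p = 0.857).

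Single libraries stood at the end of the range for several members. LF-1 was the highest library for 6 members, KLF2, KLF3, KLF4, KLF6, KLF10 and KLF11, and the lowest for KLF15. HF-4 was the lowest for 5, KLF2, KLF4, KLF7, KLF10 and KLF13. The summed CPM of the 10 genes was 679, 860, 682 and 600 in HF-1 to HF-4, against 929, 837, 784 and 752 in LF-1 to LF-4. HF-2 alone of the HF libraries was within the LF range. LF-1 is also the library with the highest mitochondrial share, at 4.41%, and the part of that in its KLF levels was not tested.

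In KLF7 and KLF10 the share of estimated counts held by each transcript model differed between libraries. Whether these shares reflect use of the models or the estimation of the counts was not tested. KLF10 was counted in XM_027452559.1 and XM_027452560.1, and the share of the second was 11.9%, 65.3%, 0% and 0% of the gene's counts in HF-1 to HF-4. In LF-1 to LF-4 it was 0.313%, 32.4%, 20.7% and 0%. It was highest in HF-2 of the HF and in LF-2 of the LF libraries, and the gene's total lay between 19.4 and 32.1 CPM. For KLF7, the minor model XM_027461151.1 held 16.8%, 15.4%, 15.8% and 11.6% in HF-1 to HF-4, against 0%, 12.5%, 2.71% and 36.4% in LF-1 to LF-4. LF-1 and LF-3 lay below the HF shares, LF-2 among them and LF-4 above them. The main models, XM_027452559.1 of KLF10 and XM_027461149.1 of KLF7, had log2 fold changes of -0.17 ± 0.37 and -0.053 ± 0.27.

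KLF15 was counted in 6 models, of which XM_027467928.1 held 83.6% to 89.3% of the counts in HF and 69.3% to 87.8% in LF. The minor model XM_005025101.4 had 4.04, 4.11, 2.85 and 1.40 CPM in HF-1 to HF-4, against 5.52, 4.47, 5.73 and 6.26 CPM in LF-1 to LF-4. Its groups did not overlap, and it did not pass (log2 fold change -0.82 ± 0.42, edgeR adjusted p = 0.762). Of the 24 KLF transcripts 16 could be tested, 0 passed edgeR's threshold and 2 had an unadjusted p under 0.05, the main KLF4 model and KLF13, where 7.42% of all transcripts did.

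**Figure D5:**
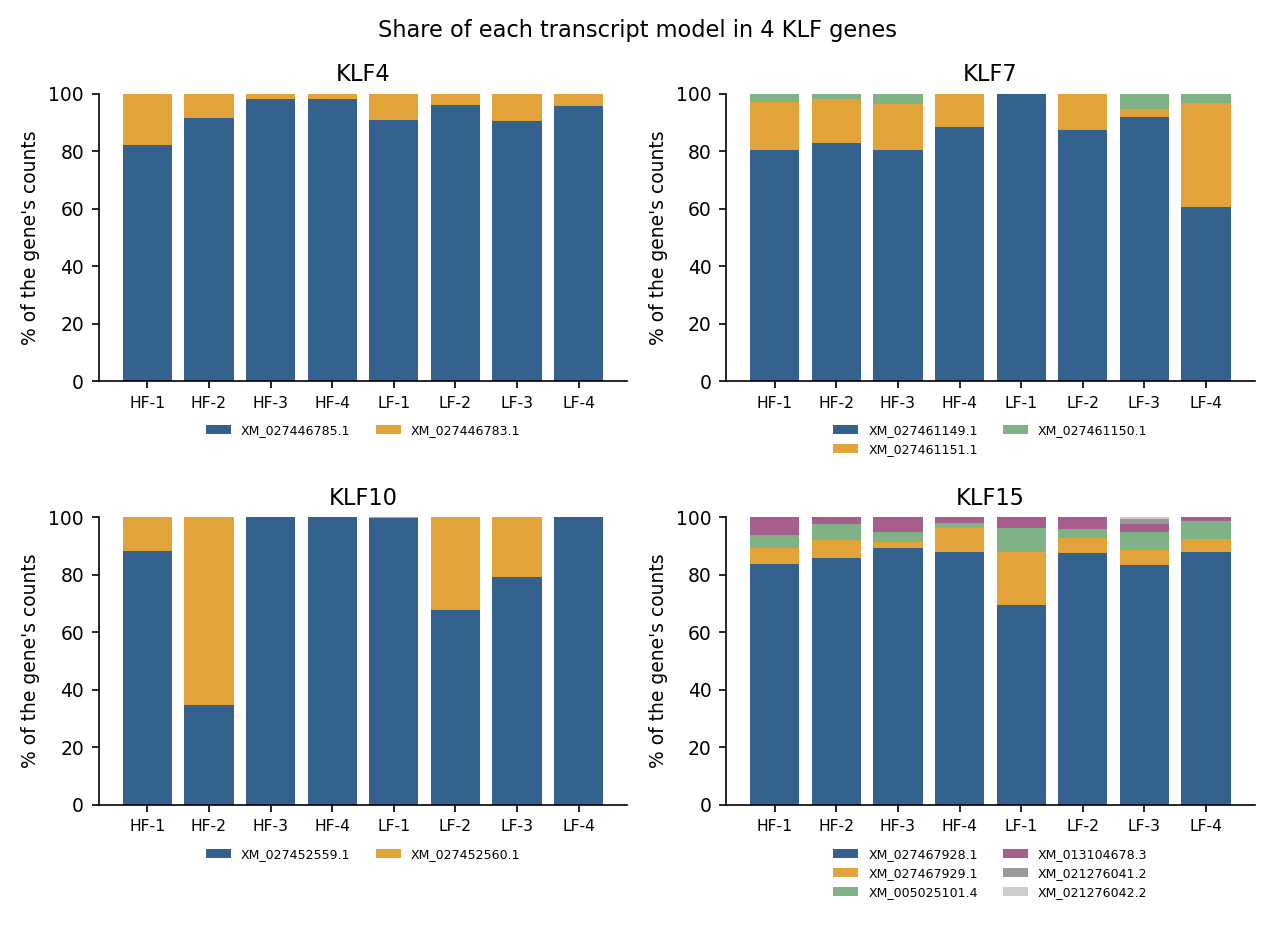
Share of each transcript model in the counts of KLF4, KLF7, KLF10 and KLF15, with HF-1 to HF-4 left of LF-1 to LF-4. The second KLF10 model reaches 65.3% in HF-2 and 32.4% in LF-2 and is at 0% in HF-3, HF-4 and LF-4, and the main KLF15 model is lowest in LF-1, at 69.3%.

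Of the relatives of these 10 genes, 9 other KLF and SP factors were in the table and 5 were abundant enough to test. None passed by edgeR, DESeq2 or limma, 1 had an unadjusted p under 0.05 (15.0% of all genes), and 4 were negative (49.8% of all genes). KLF9, a glucocorticoid-induced factor that also lies on chromosome Z in the reference, had 15.3, 12.3, 9.88 and 10.3 CPM in HF-1 to HF-4, against 14.9, 23.1, 15.5 and 34.1 CPM in LF-1 to LF-4. HF-1 was above LF-1, and LF-4, the LF library with W transcripts, was highest. The log2 fold change was -0.87 ± 0.28 (edgeR adjusted p = 0.185), and -0.58 without LF-4. KLF12, a repressor of the AP-2 alpha gene, was at -0.27 ± 0.19, and SP3, the most abundant of the group at a mean of 18.8 FPKM, at -0.068 ± 0.12. KLF8, the 1 positive gene of the 5, was at 0.37 ± 0.29 (edgeR adjusted p = 0.597).

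The genes whose pattern over the 8 libraries was nearest to KLF4 were MRPL50, FGF7 and SLC6A6. Nearness was the root mean square difference of centred log2(CPM + 0.5), which was 0.126, 0.167 and 0.169 for these and had a median of 0.634 over the 10501 other genes. MRPL50, a mitochondrial ribosomal protein that also lies on chromosome Z in the reference, stood at 2.23 ± 0.333 CPM in HF and 5.44 ± 0.674 CPM in LF. LF-4, the LF library with W transcripts, had 4.58 CPM of MRPL50, the lowest LF value, against at most 2.56 CPM in HF. SLC6A6, the taurine transporter, stood at 231 ± 29.5 CPM in HF and 475 ± 35.2 CPM in LF. For KLF13 the nearest were TOM1L1 at 0.163, KLF9 at 0.171 and MAN1A1 at 0.189, against a median of 0.631. KLF9 was thus among the 3 nearest of the 10501 other genes. In KLF13 and KLF9 alike LF-4 was highest, LF-2 second and LF-1 lowest among the LF libraries. Nearness was taken over these same 8 libraries, so the like levels and order follow from the choice of genes.

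Genes that work with KLFs gave no call by edgeR. Of 13 tested cofactors and ligases (CtBP, SIN3, HDAC and others) 0 passed by edgeR, DESeq2 or limma and 0 had an unadjusted p under 0.05, with a median of -0.056. CTBP2, the corepressor partner of KLF3, was at -0.38 ± 0.17 and NCOR1, a corepressor of nuclear receptors, at -0.37 ± 0.18. The list upstream of KLF2 and KLF4 held MEF2 factors, kinases of the MAP kinase pathway, HDAC5 and HDAC7, and its MAPK7 was not found by symbol. Of its 8 tested genes 0 passed by edgeR or limma, 1 by DESeq2 (5.80% of all genes) and 1 had an unadjusted p under 0.05 (15.0% of all genes). Of these 8, 4 were negative and 4 positive, with a median of -0.090. MEF2A was at -0.34 ± 0.11 and MAP3K2 at -0.27 ± 0.13, both lower in HF without passing edgeR's threshold.

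Adipogenic genes linked to KLFs had 8 negative and 5 positive log2 fold changes. Of 13 tested 0 passed by edgeR or limma, 1 was called lower by DESeq2, against 5.80% of all genes, and 2 had an unadjusted p under 0.05, against 15.0% of all genes. The median was -0.0090, and these counts are near those shares. CEBPD, an early C/EBP factor, had 4.44, 6.14, 2.92 and 3.08 CPM in HF-1 to HF-4, against 9.81, 13.5, 9.74 and 7.29 CPM in LF-1 to LF-4. Its groups did not overlap, and the log2 fold change of -1.29 ± 0.30 did not pass (edgeR adjusted p = 0.0893). EBF1 was at -0.32 ± 0.11. Among 8 amino acid and fuel genes linked to KLF15, 0 passed by edgeR, DESeq2 or limma and 2 had an unadjusted p under 0.05 (15.0% of all genes). These were BCAT1 of branched-chain amino acid breakdown, at -0.57 ± 0.22 (-0.34 without LF-4), and the glucose-6-phosphatase gene G6PC, at 1.66 ± 0.65. G6PC was low in count and its value rested on HF-1 and HF-2, at 2.53 and 2.63 CPM. HF-3 and HF-4, at 0.58 and 0.46 CPM, lay within the LF range of 0.23 to 0.71 CPM.

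Genes of the endothelium that KLF2 and KLF4 act on gave 0 of 12 past edgeR's threshold or limma's, 1 lower by DESeq2 (5.80% of all genes) and 2 with an unadjusted p under 0.05 (15.0% of all genes), PECAM1 and VWF. The median was -0.14, and these counts are near the shares of all genes. VWF was at -0.55 ± 0.25. Of 13 immediate early genes, which respond to handling and stress along with KLF4 and KLF6, 0 passed by edgeR, 2 by DESeq2 and 1 by limma, where these called 0.647%, 5.80% and 0.897% of all genes. An unadjusted p under 0.05 was found for 4, against 15.0% of all genes, and 11 were negative, against 49.8% of all genes, with a median of -0.36. MYC had 12.2, 16.6, 21.9 and 17.3 CPM in HF-1 to HF-4, against 43.8, 28.9, 32.99 and 48.7 CPM in LF-1 to LF-4, without overlap (log2 fold change -1.18 ± 0.22, edgeR adjusted p = 0.0530). MYC passed in 1 of the 8 leave-one-out fits, the one without LF-2 (edgeR adjusted p = 0.0401), and its adjusted p reached 0.1515 over these fits. ATF3 was at -1.01 ± 0.31. The summed level of the immediate early genes was 905 to 1840 CPM in HF and 1358 to 1781 CPM in LF, and their part in the KLF4 difference was not tested.

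Around KLF10 and KLF11, 0 of 12 TGF-beta genes passed by edgeR or limma, 1 was called higher by DESeq2 (5.80% of all genes in either direction) and 2 had an unadjusted p under 0.05 (15.0% of all genes). The median was -0.011, and these counts are near the shares of all genes. SMAD7, an inhibitor of TGF-beta receptors that lies on chromosome Z in the reference, had 31.1, 21.6, 28.9 and 31.1 CPM in HF-1 to HF-4, against 18.5, 11.8, 15.3 and 11.3 CPM in LF-1 to LF-4. The groups did not overlap, and LF-4, the LF library with W transcripts, had the lowest value. The log2 fold change of 0.99 ± 0.20 did not pass (edgeR adjusted p = 0.0611). SMAD7 passed in 1 of the 8 leave-one-out fits, the one without HF-2 (edgeR adjusted p = 0.0461). Over these fits its adjusted p reached 0.1805. SMAD3, a mediator of the pathway, was at -0.30 ± 0.11.

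Glucocorticoid-responsive genes, the class to which KLF9 and KLF15 belong in mammals, were the 1 list of the 9 with members past edgeR's threshold. Of 10 tested 2 fell in HF, ZBTB16 and PDK4, where 0.352% of all genes were called lower. The 9 lists were chosen with earlier results of these data known, so the counts of this list are no test of the class. An unadjusted p under 0.05 was found for 5 lower and 1 higher, where 15.0% of all genes had one in either direction, and 8 were negative, where 49.8% of all genes were, with a median of -0.67. DESeq2 called 4 lower and 1 higher (5.80% of all genes) and limma called 2 (0.897% of all genes). The gene with a positive value and an unadjusted p under 0.05 was HSD11B1, the enzyme that regenerates active glucocorticoid, at 1.42 ± 0.44 (edgeR adjusted p = 0.172). FKBP5, a co-chaperone of the glucocorticoid receptor, had 3.57, 2.85, 4.31 and 5.75 CPM in HF-1 to HF-4, against 10.7, 17.9, 13.5 and 46.6 CPM in LF-1 to LF-4 (log2 fold change -2.42 ± 0.47, edgeR adjusted p = 0.0557). It passed in 1 of the 8 leave-one-out fits, the one without LF-4, at -1.76 (edgeR adjusted p = 0.0350), and its adjusted p reached 0.158 over these fits. The receptor gene NR3C1 itself was at -0.095 ± 0.12. ZBTB16, a zinc finger factor, was at -3.34 ± 0.45 and PDK4, the kinase that switches off pyruvate dehydrogenase, at -1.46 ± 0.18, and each passed in 6 of the 8 leave-one-out fits, not without HF-1 or HF-4 (adjusted p up to 0.0794 for ZBTB16 and 0.0651 for PDK4).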

How the data were processed

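Per the labels' protocols, RNA of frozen abdominal fat was taken up in Trizol and read by Illumina sequencing. The authors deposited estimated counts and FPKM per transcript and library, together with a log2 fold change and p-value of their own, unadjusted, per the file headers. Bowtie2 2.2.8 and TopHat2 2.1.1 are named without a role in the submitters' processing notes. Which quantifier, genome build and strand setting were used is not given in the sources used here. Groups and replicate numbers came from the sample titles. The authors' log2 fold change is that of mean FPKM, HF over LF. The lncRNA table was not used, since none of its rows has a symbol.

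Counts were summed per symbol (case-insensitive) and rounded. The 2137 mRNA rows without a symbol, 0.839% to 0.965% of the counts, stayed out of the sums. The quasi-likelihood test of edgeR 4.0.16 in R 4.3.3 was fitted with group alone, after TMM scaling and filterByExpr. P-values were Benjamini-Hochberg adjusted over all features, with a threshold of 0.05. It was also run per transcript. CPM are TMM-scaled. SEs are the fold change over the root of its F statistic, and intervals come from the t distribution. Alternatives were other scalings, DESeq2 1.42.0, no low-count filter, limma 3.58.1 on log2(FPKM + 1) for genes averaging 0.5 FPKM or more, the replicate number as a block, a covariate for W transcripts, leaving out each library and, added after seeing the data, member sums from rows with an accession match.

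The members and the 9 gene lists were chosen with earlier results of these data known. All members were named. Of each list up to 4 genes past the threshold were named, or the 2 of smallest p. The 3 nearest genes were named for the members past the threshold and the 2 of smallest p. Other genes, such as FKBP5, NR3C1, HSD11B1, SP3 and the minor models, were chosen after their values were seen. Depth ranged from 12696240 to 30836178 estimated counts per library, and low counts such as those of KLF5 limit the precision.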

Additional observations from a re-analysis of the deposited data

How the results depend on the processing

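Of the 10 members 1, KLF4, passed with all 8 libraries. The count was 2 with DESeq2 (KLF4 and KLF13), 0 with the replicate block, 0 with the W covariate, and from 0 to 1 when a library was left out. Genes past the threshold numbered 68, and 9 with the replicate block, 128 with the W covariate, 596 with DESeq2, and from 2 without HF-1 to 92 without LF-4. Transcripts past it numbered 4, and 0 without a low-count filter, 0 with the replicate block and from 0 to 35 when a library was left out, with 35 without LF-4. Genes of the 9 lists past it numbered 2, and from 0, without HF-1 or HF-4, to 4, without HF-2. The sample titles do not say whether same-numbered HF and LF libraries were paired. Their deviations from the group means correlated across genes with r of 0.008, -0.272, -0.181 and 0.076. For libraries of unlike numbers r lay between -0.141 and 0.23. These values cannot exclude a pairing. Under the replicate block KLF4 was at -1.09 (edgeR adjusted p = 0.117).

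KLF2, KLF4 and KLF13 were negative under all 16 alternatives, though KLF2 was at -0.0002 with the W covariate. KLF6 was positive at 0.0025 with DESeq2's size factors and with DESeq2, 0.0035 without a filter, 0.029 with the replicate block, 0.016 with upper-quartile scaling, 0.062 with limma and 0.46 with the W covariate. With that covariate KLF3 was at 0.28 and KLF11 at 0.41. In that fit the group difference rests on LF-4, the only LF library with W transcripts. LF-4 was the lowest library for KLF6 and KLF11, and the lowest LF library for KLF3. KLF7 was at -0.017 with the replicate block and KLF10 at 0.014 with limma. Leaving out a library, the log2 fold change ranged from -0.20 to 0.11 for KLF3, -0.057 to 1.40 for KLF5, -0.13 to 0.16 for KLF6, -0.14 to 0.15 for KLF7, -0.094 to 0.098 for KLF10, -0.24 to 0.020 for KLF11 and -0.30 to 0.028 for KLF15. The cause of the changes outside the W fit was not tested. None of these 7 genes passed in any fit that gave it an adjusted p. KLF5 was not tested by limma or with the matched rows alone, and DESeq2 gave it no adjusted p. Depth limits KLF5, whose lowest library held 1 count.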

Other observations

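KLF13, KLF9 and FKBP5 shared an order of the LF libraries, LF-4 highest, then LF-2, LF-3 and LF-1, which 7.59% of the 10511 tested genes showed and, among the 10 members, KLF13 alone. The values in LF-4, LF-2, LF-3 and LF-1 were 160.3, 103.7, 80.4 and 70.45 CPM for KLF13 and 34.1, 23.1, 15.5 and 14.9 CPM for KLF9. FKBP5 stood at 46.6, 17.9, 13.5 and 10.7 CPM in the same libraries. ZBTB16 was also highest in LF-4, at 92.6 CPM, with LF-1 above LF-3 (39.6 and 35.4 CPM). These genes were set side by side after their values were seen, and no test was made of the shared order.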
